A study of Mus musculus with 17 samples.

Results

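Gkn1, Gkn2, Gkn3, Tff1, Tff2, Muc5ac, Muc6 and Atp4a are genes of the stomach lining, and their RNA was followed here through 17 mouse libraries, with most weight on 8 libraries of the small intestine. The 8 genes were chosen by name as listed genes of the stomach epithelium. They are 8 of 33840 gene symbols in the intestinal files and 8 of 24594 numeric identifiers in the files labelled liver, where they were found by their Entrez numbers. The list was drawn up with earlier results of these libraries known, and the values that led to it are not recorded. Levels and changes of the 8 genes are therefore a description, and the adjusted p-values printed beside them come from fits across all genes and are no independent support.

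All mice had the genotype WT. In the intestinal set, RNA of the small intestine was sequenced in bulk after Sham operation or Hepatectomy, the surgical removal of liver tissue, from cells labelled IEC (intestinal epithelial cells) or Crypt (the pits of the lining where its stem cells sit), 2 libraries in each of these 4 groups. The other 9 libraries carry the tissue label Liver and the treatment label DSS at Day 0, Day 10 and Day 20, with 3 libraries a day. The labels give no age, no amount of liver removed, no time after the operation and no position along the small intestine. Nor do they say whether each library is a separate animal. The p-values rest on the spread among these libraries alone, and that spread may be technical. The labels name no batch. The running numbers in the files' headers fall into separate ranges for the sham and the hepatectomy libraries, and what these numbers stand for is not stated. If they mark a batch, it and the operation cannot be told apart.

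The intestinal libraries held 26609786 to 43580050 counts each, and those labelled liver 12742629 to 42669857. Levels are given as TMM-normalised CPM (counts per 1000000 after scaling by the trimmed mean of M values), with the mean ± SD of each group's libraries. The intestinal label held up against markers: 6 hepatocyte genes summed to 3.64 to 8.47 CPM, while 5 enterocyte genes summed to 3018 to 45704 CPM and 3 crypt genes to 1058 to 2139 CPM. The fraction labels held up in part. All 5 enterocyte genes and, of the crypt genes, the Paneth cell gene Lyz1 (log2 -1.06 ± 0.049 in sham and -1.92 ± 0.05 after hepatectomy) and the stem cell gene Lgr5 (-0.38 ± 0.12 and -0.51 ± 0.12) were lower in the Crypt than in the IEC libraries, while Olfm4 was higher (0.26 ± 0.037 and 0.56 ± 0.037), each past the test. The tissue label of the other set did not hold up at 2 of 3 days. There the hepatocyte genes summed to 549 to 731 CPM at day 0, 740 to 2194 CPM at day 10 and 109831 to 113951 CPM at day 20, while the crypt genes summed to 13493 to 16784, 5693 to 10980 and 110 to 148 CPM. These 9 libraries are called "labelled liver" throughout, and a difference between their days is also a difference in tissue markers. Replicate 3 of day 10 had the lowest depth and stood apart in several measures given below.

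In the stomach, surface mucous cells (pit cells) secrete the gastrokines Gkn1 and Gkn2 together with the trefoil peptide Tff1 and the gel-forming mucin Muc5ac. Mucous cells of the neck and the deeper glands make another trefoil peptide, Tff2, with the mucin Muc6, and in mice also the gastrokine Gkn3. Parietal cells carry the proton pump that acidifies the stomach, of which Atp4a encodes the catalytic subunit. In the small intestine the corresponding goblet cell products are Tff3 and Muc2, while Brunner's glands, in the wall of the duodenum next to the stomach, also make Muc6 and Tff2.

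The 3 gastrokine genes lie side by side on chromosome 6 (mm10, coordinates of GENCODE vM21), Gkn1 at chr6:87345650-87350942 on the minus strand, Gkn2 at chr6:87373357-87379497 on the plus strand and Gkn3 at chr6:87383256-87388935 on the minus strand. Their promoters are shown because these neighbours are followed one by one below. Each line holds 250 bases before the start of transcription and the first 30 bases after it, 5′ to 3′ on the gene's own strand, from RefSeq on GRCm38.p6, at chr6:87350886-87351165 (minus), chr6:87373115-87373394 (plus) and chr6:87388906-87389185 (minus). Capitals mark matches of 2 short motifs that are spelled out after the lines.
Gkn1: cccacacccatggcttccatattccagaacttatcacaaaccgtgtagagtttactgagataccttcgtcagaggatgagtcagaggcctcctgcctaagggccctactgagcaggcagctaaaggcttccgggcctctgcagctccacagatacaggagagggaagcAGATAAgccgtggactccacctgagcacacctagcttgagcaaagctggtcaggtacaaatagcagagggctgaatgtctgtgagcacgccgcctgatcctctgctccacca
Gkn2: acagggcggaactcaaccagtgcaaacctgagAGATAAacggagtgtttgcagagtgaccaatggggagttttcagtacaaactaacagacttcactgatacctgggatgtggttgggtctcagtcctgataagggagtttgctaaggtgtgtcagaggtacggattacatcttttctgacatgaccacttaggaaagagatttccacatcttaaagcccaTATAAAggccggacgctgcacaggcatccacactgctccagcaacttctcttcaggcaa
Gkn3: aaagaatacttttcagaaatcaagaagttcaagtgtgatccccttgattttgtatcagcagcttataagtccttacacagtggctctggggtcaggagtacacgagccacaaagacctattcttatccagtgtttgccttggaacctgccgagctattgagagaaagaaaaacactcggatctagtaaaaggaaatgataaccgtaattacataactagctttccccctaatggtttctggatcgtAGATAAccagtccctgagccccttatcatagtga
The first motif, AGATAA, is one that zinc finger factors important in gut and stomach development recognise. All 3 promoters held it, starting at base 169 of the Gkn1 line, base 33 of Gkn2 and base 247 of Gkn3, and so did 10.7% of 32851 RefSeq promoters of the same length, counting either strand. The second motif, the core promoter element TATAAA, was held by Gkn2 alone of the 3, starting at base 222, and by 13.1% of all promoters. Also searched on both strands were TGTTTAC, a motif of forkhead factors, TTTATNG, a motif of CDX factors, and GTTAAT, a motif of HNF1 factors. None of the 3 promoters held any of them. The table held promoters of 5 of the 8 genes, and that of Muc6 also held the first motif. No motif searched overlapped another in these windows, and a match describes letters only.

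Of the other genes, Tff2 (chr17:31141049-31144282) and Tff1 (chr17:31161395-31165277) lie on the minus strand of chromosome 17 next to Tff3. Muc6 (chr7:141633456-141655319, minus) and Muc5ac (chr7:141788972-141819231, plus) flank Muc2 on chromosome 7, and Atp4a (chr7:30712209-30725534, plus) lies elsewhere on that chromosome. Counts are given per gene, and summed exon lengths run from 584 bp for Tff2 to 10752 bp for Muc5ac. Tff1 overlaps the antisense gene Gm15318, and without a stated strand of counting its counts are uncertain. Gm15318 stood at 0.0769 to 0.203 CPM in the 4 intestinal group means, below Tff1 in each.

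After hepatectomy, the IEC libraries held far less RNA of the surface genes Gkn1, Gkn2 and Tff1 than the sham IEC libraries, whereas Gkn3 stood at a similar level in both. Tff2, a neck and gland gene, and the surface gene Muc5ac, on few counts, were also lower there. In crypts Gkn1 and Gkn2 did not pass the test between hepatectomy and sham, and Tff1 was 1.36-fold higher. Gkn3, Tff2, Muc6 and, on few counts, Muc5ac were higher in crypts after hepatectomy. The 8 genes thus did not move as 1 block in either fraction. Markers of other epithelial cells moved with the operation as well. All 5 enterocyte genes rose in both fractions, with summed levels of 3018 to 3050 CPM in sham crypts, 7859 to 7886 in hepatectomy crypts, 17306 to 17539 in sham IEC and 44030 to 45704 in hepatectomy IEC. The 3 crypt genes fell in crypts and 2 of them in IEC, from sums of 1991 to 2068 and 2123 to 2139 CPM after sham to 1058 to 1079 and 1129 to 1141 CPM after hepatectomy. All 5 goblet cell genes fell in crypts, from 4198 to 4235 CPM to 1782 to 1816 CPM in sum, while in IEC 2 rose and 3 fell, with sums of 4919 to 5087 and 5743 to 5913 CPM. Over all genes tested, 19.2% rose and 18.3% fell in crypts, and 19.5% and 18.3% in IEC. The part of these shifts in the changes of the 8 genes was not tested. In bulk libraries, fewer cells of a type and less RNA per cell cannot be told apart.

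Counts of Gkn1, which encodes a gastrokine of the surface mucus, were 258 and 262 in the sham IEC libraries. They were 34 and 25 in the hepatectomy IEC libraries, 112 and 116 in the sham crypt libraries, and 94 and 126 in the hepatectomy crypt libraries. The hepatectomy IEC libraries were the lowest and the sham IEC libraries the highest of the 8, and the crypt libraries of both operations overlapped between them. As levels this was 9.84 ± 0.3 CPM in sham IEC, 2.92 ± 0.53 in sham crypts, 2.85 ± 0.12 in hepatectomy crypts and 1 ± 0.16 in hepatectomy IEC (SD, n = 2 each). In IEC, Gkn1 was 9.79-fold lower after hepatectomy, a log2 change of -3.28 ± 0.19 (SE, adjusted p = 5.9e-08, edgeR). In crypts the log2 difference was -0.02 ± 0.17 (adjusted p = 0.98, edgeR), with a sign that turned under another scaling and without either of 2 libraries. Counted against all counts of a library, without TMM scaling, Gkn1 was at 2.82 CPM in hepatectomy crypts and 3.64 CPM in sham crypts, and lower in both hepatectomy libraries than in either sham library.

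Gkn2, whose product is secreted by the same surface cells, followed Gkn1 closely. In IEC its counts were 265 and 238 after sham and 21 and 26 after hepatectomy, and in crypts 88 and 125 after sham and 91 and 92 after hepatectomy. Its level was 9.51 ± 0.54 CPM in sham IEC and 0.809 ± 0.17 CPM in hepatectomy IEC (SD, n = 2), with no overlap, and 2.67 ± 0.11 and 2.41 ± 0.38 CPM in the crypts, with overlap. In IEC it was 11.8-fold lower after hepatectomy, at a log2 change of -3.56 ± 0.20 (SE, adjusted p = 4.4e-08, edgeR), and in crypts the log2 difference was -0.16 ± 0.17 (adjusted p = 0.51, edgeR). In CPM of all counts Gkn2 was at 2.39 in hepatectomy crypts and 3.31 in sham crypts. There both hepatectomy libraries lay below both sham libraries.

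Tff1, the trefoil peptide of pit cells, was the most abundant of the 8 in sham IEC, both in counts and per length. Its counts in IEC were 390 and 339 after sham and 43 and 42 after hepatectomy, and in crypts 103 and 165 after sham and 162 and 185 after hepatectomy. Its level fell from 13.8 ± 1.1 CPM in sham IEC to 1.46 ± 0.062 CPM in hepatectomy IEC (SD, n = 2), which is 9.46-fold, at a log2 change of -3.24 ± 0.16 (SE, adjusted p = 1.2e-08, edgeR). In crypts it was 1.36-fold higher after hepatectomy, at 4.53 ± 0.32 against 3.33 ± 0.42 CPM, with a log2 change of 0.43 ± 0.14 (adjusted p = 0.031, edgeR). That call did not hold without replicate 1 of the sham crypts (log2 0.32, adjusted p = 0.18, edgeR), without the first hepatectomy crypt library (0.37, adjusted p = 0.12, edgeR) and in DESeq2 (0.46, adjusted p = 0.092). In CPM of all counts the Tff1 values of the crypt groups overlapped, with means of 4.5 and 4.12.

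Muc5ac, the surface mucin, had few counts despite its length: 28 and 21 in IEC after sham, 9 and 4 in IEC after hepatectomy, 3 and 5 in crypts after sham, and 13 and 15 in crypts after hepatectomy. Each hepatectomy group lay apart from its sham group, below it in IEC and above it in crypts. In IEC Muc5ac fell by 2.04 ± 0.48 on the log2 scale (SE, adjusted p = 0.0052, edgeR), and this call was lost without replicate 1 of sham IEC (log2 -1.86, adjusted p = 0.052, edgeR) or replicate 2 of hepatectomy IEC (-1.64, adjusted p = 0.064, edgeR). In crypts it rose by 1.82 ± 0.56 (adjusted p = 0.023, edgeR), and that call was lost in DESeq2 (adjusted p = 0.083) and without any 1 of the 4 crypt libraries, with adjusted p between 0.069 and 0.11 in edgeR.

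**Figure D1:**
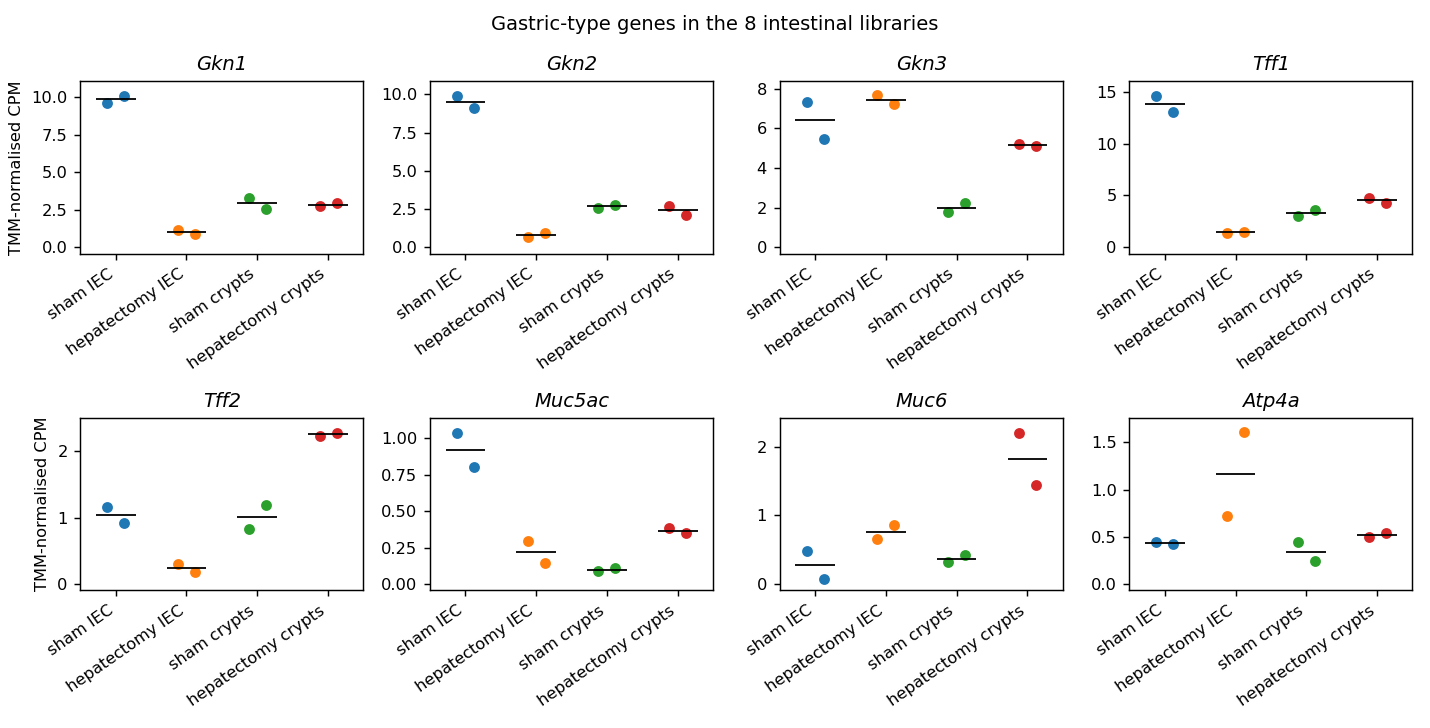
Levels of the 8 genes in the 8 intestinal libraries, in TMM-normalised CPM on linear axes that differ between genes. Each point is a library and each bar the mean of a group (n = 2), with Gkn1, Gkn2 and Tff1 highest in sham IEC (9.84, 9.51 and 13.8 CPM) and lowest in hepatectomy IEC, and Gkn3 at 7.45 CPM in hepatectomy IEC.

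Gkn3 is the gastrokine of neck mucous cells. Its counts in IEC were 197 and 142 after sham and 234 and 202 after hepatectomy, and in crypts 60 and 101 after sham and 177 and 219 after hepatectomy. The sham crypts were the lowest group, and the 2 IEC groups overlapped. In crypts Gkn3 was 2.59-fold higher after hepatectomy, at 5.15 ± 0.07 against 1.99 ± 0.32 CPM (SD, n = 2), a log2 change of 1.35 ± 0.17 (SE, adjusted p = 8.9e-05, edgeR). In IEC the levels were 7.45 ± 0.33 and 6.4 ± 1.3 CPM, with a log2 difference of 0.22 ± 0.16 (adjusted p = 0.31, edgeR).

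Tff2 encodes the trefoil peptide of neck and gland mucous cells. It had 31 and 24 counts in IEC after sham, 9 and 5 in IEC after hepatectomy, 28 and 54 in crypts after sham, and 76 and 98 in crypts after hepatectomy. It was lowest in hepatectomy IEC and highest in hepatectomy crypts, and neither group overlapped its sham group. In IEC it was 4.38-fold lower after hepatectomy (0.237 ± 0.083 against 1.04 ± 0.17 CPM, SD, n = 2; log2 change -2.10 ± 0.41, adjusted p = 0.0014, edgeR). In crypts it was 2.25-fold higher (2.26 ± 0.035 against 1 ± 0.26 CPM; log2 change 1.15 ± 0.27, adjusted p = 0.0051, edgeR).

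Muc6, the gland mucin, had 13 and 2 counts in IEC after sham and 20 and 24 after hepatectomy. In crypts it had 11 and 19 counts after sham and 75 and 62 after hepatectomy. The hepatectomy crypts stood above all other libraries. Muc6 was 4.92-fold higher there than in sham crypts (1.82 ± 0.54 against 0.37 ± 0.067 CPM, SD, n = 2), a log2 change of 2.26 ± 0.45 (SE, adjusted p = 0.0021, edgeR). In IEC the log2 difference of 1.40 ± 0.58 missed the threshold (adjusted p = 0.079, edgeR) and passed it without replicate 1 of sham IEC (3.22, adjusted p = 0.0092, edgeR) and with no filter on low counts (1.34, adjusted p = 0.039, edgeR).

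Atp4a, the pump subunit of parietal cells, had 12 and 11 counts in IEC after sham and 22 and 45 after hepatectomy. In crypts it had 15 and 11 counts after sham and 17 and 23 after hepatectomy. Both hepatectomy IEC libraries lay above both sham IEC libraries, and replicate 2 was the highest of the 8. In IEC Atp4a rose by 1.40 ± 0.48 on the log2 scale (SE, adjusted p = 0.036, edgeR), a call lost without that replicate (0.72, adjusted p = 0.38, edgeR), without either sham IEC library (1.43 and 1.35, adjusted p = 0.12 and 0.13, edgeR) and in DESeq2 (adjusted p = 0.082). In crypts the log2 difference was 0.64 ± 0.50 (adjusted p = 0.34, edgeR).

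Over the 8 genes, all of which passed the filter on low counts, 5 rose and 0 fell in hepatectomy against sham crypts. Of all 18207 genes tested there, 37.5% changed, with 19.2% risen and 18.3% fallen. In IEC 1 of the 8 rose and 5 fell, where 37.8% of all genes changed, with 19.5% risen and 18.3% fallen. A gene that is low in most groups passes such a filter through the group where it is high, so these counts are read as a description. The median log2 change of the 8 genes was 0.89 in crypts and -2.07 in IEC, beside 0.01 and 0.02 over all genes tested.

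The effect of hepatectomy differed between the fractions for 6 of the 8 genes, by the interaction of operation and fraction, where 19.2% of all genes differed, 9.15% with the crypt effect higher and 10.1% with it lower. The crypt effect exceeded the IEC effect by 3.67 ± 0.21 for Tff1 (log2, SE, adjusted p = 4.7e-07, edgeR), 3.26 ± 0.26 for Gkn1 (adjusted p = 6e-06, edgeR) and 3.40 ± 0.27 for Gkn2 (adjusted p = 6.3e-06, edgeR). For Muc5ac the difference was 3.87 ± 0.74 (adjusted p = 0.0034, edgeR), for Tff2 3.25 ± 0.49 (adjusted p = 0.00072, edgeR) and for Gkn3 1.13 ± 0.24 (adjusted p = 0.0055, edgeR). Muc6 (0.86 ± 0.78, adjusted p = 0.49, edgeR) and Atp4a (-0.77 ± 0.70, adjusted p = 0.5, edgeR) did not pass. The goblet cell peptide Tff3 went the other way, at 1426 ± 13 and 673 ± 20 CPM in sham and hepatectomy crypts (log2 change -1.08 ± 0.042) and 1811 ± 69 and 2319 ± 52 CPM in IEC (0.36 ± 0.041). Its difference of effects was -1.44 ± 0.059 (adjusted p = 4.3e-08, edgeR).

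**Figure D2:**
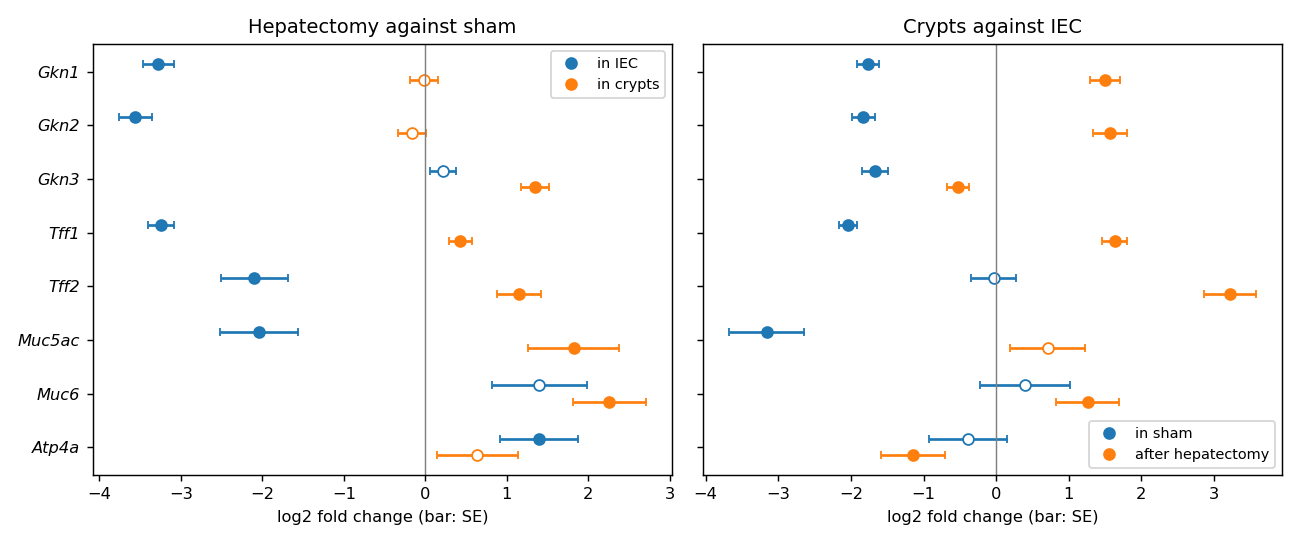
Log2 fold changes of the 8 genes between hepatectomy and sham (left) and between crypts and IEC (right), with bars of 1 SE and filled points for changes that passed the test. At the left, in IEC the points of Gkn1, Gkn2 and Tff1 lie between -3.56 and -3.24, while in crypts the same genes lie between -0.16 and 0.43 and Gkn3, Tff2, Muc5ac and Muc6 lie higher.

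The contrast between the fractions turned with the operation for the surface genes Gkn1, Gkn2 and Tff1. For the surface gene Muc5ac, the difference between crypts and IEC after hepatectomy did not pass (log2 0.71 ± 0.52, SE, adjusted p = 0.28, edgeR). In sham, 5 of the 8 genes fell in crypts against IEC and 0 rose, where 38.6% of all genes changed, with 19.3% in each direction. Tff1 stood 2.04 ± 0.13 lower in crypts (log2, SE), Gkn2 1.83 ± 0.16, Gkn1 1.76 ± 0.15, Gkn3 1.67 ± 0.18 and Muc5ac 3.16 ± 0.52 lower. After hepatectomy 5 genes rose and 2 fell, where 51.9% of all genes changed, with 26.3% risen and 25.6% fallen. Tff2 was 3.22 ± 0.36 higher in crypts, Tff1 1.63 ± 0.17, Gkn2 1.57 ± 0.23 and Muc6 1.26 ± 0.43 higher, with Gkn1 between the last pair, while Gkn3 was at -0.53 ± 0.15 and Atp4a at -1.15 ± 0.44. These comparisons share libraries with the ones above, and the difference of the fractions between operations is the same interaction. The call of Atp4a did not survive leaving out replicate 2 of hepatectomy IEC (-0.48, adjusted p = 0.51, edgeR). The call of Muc6 was lost in DESeq2 (adjusted p = 0.056) and without either hepatectomy IEC library or replicate 1 of the hepatectomy crypts, and that of Gkn3 without replicate 1 of hepatectomy IEC (-0.48, adjusted p = 0.075, edgeR).

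Within a library, the ratio of 2 genes' counts does not depend on depth or scaling. Gkn2 stood at 0.618 to 1.08 counts per Gkn1 count over the 8 intestinal libraries, and Tff1 at 0.92 to 1.72, a spread of 1.75-fold and 1.87-fold, although Gkn1 itself ranged from 25 to 262 counts. Gkn3 did not keep such a ratio. It stood at 0.536 to 0.871 counts per Gkn1 count in the 4 sham libraries, at 1.74 and 1.88 in hepatectomy crypts and at 6.88 and 8.08 in hepatectomy IEC, a 15.1-fold spread without overlap between sham and hepatectomy. Tff2 ranged 8.83-fold, from 0.0916 to 0.809, with the highest ratios in hepatectomy crypts. The part that RNA carried over from stomach tissue may have in these levels was not tested.

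**Figure D3:**
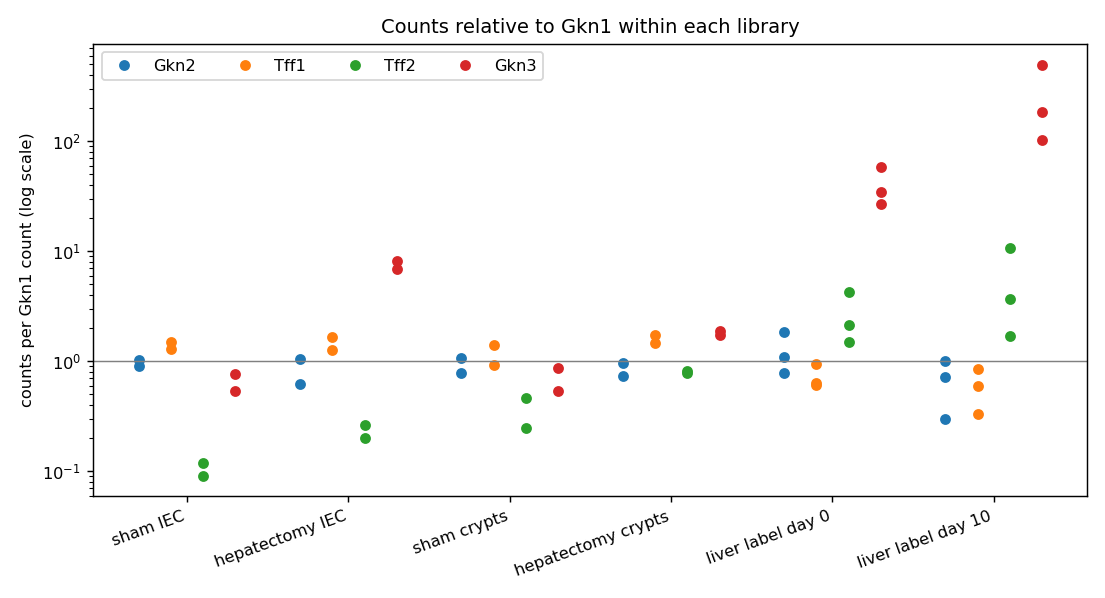
Counts of Gkn2, Tff1, Tff2 and Gkn3 per Gkn1 count on a log axis, with 1 point per library, for the intestinal groups and for the libraries labelled liver of days 0 and 10. Gkn2 and Tff1 stay within 0.618 to 1.72 in all 8 intestinal libraries, while Gkn3 reaches 6.88 and 8.08 in hepatectomy IEC.

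Levels of different genes were compared per kilobase of exon. In sham IEC the order was Tff1 (19.6 CPM per kb), Gkn2 (12.1), Gkn1 (7.87), Gkn3 (7.48), Tff2 (1.78), Atp4a (0.116), Muc5ac (0.0861) and Muc6 (0.03). The libraries of the neighbours Gkn1 and Gkn3 overlapped in that order, at 7.7 and 8.04 against 8.59 and 6.36 CPM per kb. In hepatectomy IEC Gkn3 led at 8.7 CPM per kb, ahead of Tff1 at 2.07, Gkn2 at 1.03 and Gkn1 at 0.804. The intestinal counterparts stood far above, with Tff3 at 3674 and Muc2 at 94.5 CPM per kb in sham IEC.

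Receptor genes best known from the nose, a few of which gut cells also express, were summed as a measure of background. The 1411 olfactory and vomeronasal receptor genes summed in IEC to 88.9 and 105 CPM of all counts after sham and 192 and 202 CPM after hepatectomy. In crypts they summed to 75.2 and 68.2 CPM after sham and 215 and 238 CPM after hepatectomy. They were thus higher in every hepatectomy library. Of the 3 members with the fewest counts per kb, Muc6 and Muc5ac rose in crypts and Atp4a in IEC beside this, while Muc5ac fell in IEC. Counts per kb of Gkn1, Gkn2, Gkn3, Tff1 and Tff2 lay above the 99th percentile of these receptor genes in all 8 libraries. Atp4a did so in 5 of 8, Muc6 in 2 and Muc5ac in 1. In hepatectomy crypts Muc6 stood at 8.01 and 6.62 counts per kb, beside a 99th percentile of 7.44 and 11.7 counts per kb among the receptor genes. The part of this background in the low values was not tested.

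Other genes of the stomach gave a mixed picture in the intestinal libraries. Of the surface cell list, 5 of 6 genes were in the files and 4 were tested. Psca fell in IEC after hepatectomy (log2 -2.20 ± 0.59, SE, adjusted p = 0.011, edgeR), from 12 to 22 counts in sham to 3 to 5, and it also fell in crypts against IEC in sham (-2.62 ± 0.59, adjusted p = 0.0036, edgeR). Capn8, Ctse and Anxa10 did not pass in IEC, Capn8 fell in crypts (-0.58 ± 0.16, adjusted p = 0.015, edgeR), and Vsig1 stayed under 10 counts in every library. All 3 neck and gland genes (Aqp5, Cxcl17, Bpifb1) were under 10 counts in every library, with a summed level of 0.0767 to 0.261 CPM in IEC and 0 to 0.0294 CPM in crypts after sham, and 0.361 to 0.393 and 0.0932 to 0.118 CPM after hepatectomy.

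Of the parietal list, 6 of 7 genes were in the intestinal files, and Kcne2, Slc26a7 and Slc26a9 were under 10 counts in every library. The partner subunit of the proton pump, Atp4b, was not analysed here in the intestine. Aqp4 and Esrrg, which the intestine also expresses, made up nearly all of that list's summed level of 29.9 to 39.9 CPM. Esrrg fell in crypts (-0.49 ± 0.13) and in IEC (-0.48 ± 0.15), and Aqp4 in IEC (-0.37 ± 0.069). Of the chief cell list, the pepsinogen gene Pgc rose in crypts (log2 1.14 ± 0.36, adjusted p = 0.028, edgeR) and had a log2 difference near 0 in IEC (0.02 ± 0.37, adjusted p = 0.98, edgeR). Pgc had 19 to 64 counts a library, while the chitinase Chia1 had 0 to 2. The stomach hormone gene Gast had 0 to 5 counts and the stomach regulator Sox2 0 to 5. Of 8 genes of the squamous forestomach, 7 were under 10 counts in every library, and the list summed to at most 0.745 CPM. The one tested, the keratin gene Krt14, was at 0 counts in each sham crypt library and at 13 and 18 counts in the hepatectomy crypts, where it rose (adjusted p = 0.0023, edgeR). In IEC it had 0 to 4 counts after sham and 2 to 4 after hepatectomy (adjusted p = 0.8, edgeR). Among the olfactory and vomeronasal receptor genes, the 95th percentile in these 2 hepatectomy crypt libraries was 12 and 21 counts per gene. The parts of that background and of squamous cells in the Krt14 counts were not tested.

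Genes that flank the gastrokine cluster were low. Antxr1, Bmp10 and Arhgap25, which flank the gastrokine cluster, had group means of at most 0.459, 0.07 and 0.794 CPM in the intestinal libraries. Beside the mucin genes, Muc5b had at most 0.425 CPM, while Ap2a2 had 134 to 238 CPM and Tollip 49.9 to 85.1 CPM. The gastrokines thus stood above their flanking genes in each intestinal group. Tff3 and Muc2, which lie between or beside the trefoil and mucin members, moved apart from them as given above for Tff3. Muc2 fell in crypts after hepatectomy by 1.22 ± 0.044 on the log2 scale (SE, adjusted p = 1.5e-09, edgeR), where Muc6 and Muc5ac rose.

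Likeness of profiles was the Pearson r of log2(CPM + 0.5) over the 8 intestinal libraries, among 11579 genes. Only genes with a mean of at least 1 CPM could be named, so Muc5ac, Muc6 and Atp4a could not. By this measure 3 surface genes (Gkn1, Gkn2 and Tff1) named one another. The 3 genes most like Gkn1 were Il17re (r = 0.989), Gkn2 (0.984) and Tff1 (0.975), and those most like Tff1 were Il17re (0.986), Gkn2 (0.981) and Gkn1 (0.975). For Gkn2 they were Nav2 (0.985), Gkn1 (0.984) and Tff1 (0.981). Those most like Muc5ac (among 11580 genes) were Nacc2 (0.961), Afp (0.957) and Cyb561d1 (0.942). Of the members that could be named, none was among the 3 genes most like Gkn3, which were mt-Atp6 (0.986), Golga4 (0.983) and mt-Co2 (0.982). These points share 4 groups of 2 libraries, so r mostly reflects the 4 group means, and no p is given.

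In the 9 libraries labelled liver the order of the genes was another. Gkn3 dominated at day 0 and day 10, the days with crypt markers, and nearly vanished at day 20, the day with hepatocyte markers. It had 1358, 1107 and 1043 counts at day 0, 1833, 1495 and 722 at day 10, and 8, 12 and 10 at day 20. Its level was 28 ± 4.7, 50.4 ± 14 and 0.373 ± 0.086 CPM (SD, n = 3), with no overlap between days. Day 10 was above day 0 by 0.85 ± 0.21 (log2, SE, adjusted p = 0.0094, edgeR), a call lost without replicate 2 or 3 of day 0 or replicate 1 of day 10 (0.63 to 0.68, adjusted p = 0.057 to 0.077, edgeR). Day 20 was below day 0 by a log2 change of -6.22 ± 0.30 (adjusted p = 8.8e-10, edgeR).

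The surface genes were low there. Per kb, Gkn1 and Gkn2 lay above the 99th percentile of the olfactory and vomeronasal receptor genes in 3 of 9 libraries, those of day 0. The part of that background in the day 10 values was not tested. Gkn1 had 39, 41 and 18 counts at day 0, 10, 3 and 7 at day 10, and 0 in all 3 libraries of day 20. With a floor of 3 counts per library, or 0.111 CPM, which covers counting error only, Gkn1 was at least 6.9-fold lower at day 20 than at day 0. Gkn2 had 43, 32 and 33 counts at day 0, 3, 3 and 5 at day 10 and 0 at day 20, which is at least 7.76-fold lower. Gkn2 fell at day 10 (log2 -2.53 ± 0.67, adjusted p = 0.014, edgeR), and Gkn1 (-1.59, adjusted p = 0.073, edgeR) and Tff1 (-1.64, adjusted p = 0.12, edgeR) passed only without replicate 3 of day 10 (-1.83, adjusted p = 0.037, and -2.17, adjusted p = 0.039, edgeR). Tff1 had 25, 25 and 17 counts at day 0, 6, 1 and 6 at day 10 and 2, 4 and 0 at day 20. In the liver-marked day 20 libraries the antisense gene Gm15318 stood at 9.93 CPM, above Tff1 at 0.0761 CPM.

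Per Gkn1 count, the day 0 and day 10 libraries held 27 to 498 counts of Gkn3, against 0.536 to 8.08 in the intestinal libraries. They held 0.333 to 0.944 counts of Tff1, against 0.92 to 1.72. For Gkn3 the ratio was 27 to 57.9 at day 0 and 103 to 498 at day 10. The day 10 ratios divide by only 10, 3 and 7 counts of Gkn1. The tables of the 2 sets were normalised apart, so these within-library ratios are the values set side by side. Tff2 had 58, 87 and 77 counts at day 0, 17, 32 and 26 at day 10 and 1, 2 and 3 at day 20, and it fell at day 20 against day 0 (log2 -4.50 ± 0.62, adjusted p = 2.3e-05, edgeR). Pgc, the pepsinogen gene, was likewise lowest at day 20, with 4 ± 0.81 CPM at day 0, 5.22 ± 1 at day 10 and 0.0748 ± 0.074 at day 20.

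Muc5ac and Muc6 rested on 1 library at day 10. Muc5ac had 5, 12 and 13 counts at day 0, 21, 15 and 73 at day 10 and 2, 0 and 1 at day 20, and Muc6 had 45, 32 and 17, then 43, 36 and 117, then 13, 16 and 15. Replicate 3 of day 10 was the highest for both. Muc5ac rose by 2.70 ± 0.81 at day 10 (log2, SE, adjusted p = 0.02, edgeR) and Muc6 by 1.89 ± 0.58 (adjusted p = 0.022, edgeR), and without that library they stood at 1.33 (adjusted p = 0.1, edgeR) and 0.85 (adjusted p = 0.12, edgeR). The same library held 1785 CPM of all counts over 1437 olfactory and vomeronasal receptor genes, against 497 and 565 in the other libraries of day 10, and the part of that background was not tested. Muc5ac lay above the 99th percentile of those genes per kb in 0 of 9 libraries and Muc6 in 1.

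Atp4a was the one member that rose at day 20, where 5 others fell against day 0. It had 30, 40 and 46 counts at day 0, 61, 40 and 37 at day 10 and 86, 79 and 85 at day 20, at levels of 0.929 ± 0.23, 1.75 ± 0.11 and 3.09 ± 0.061 CPM (SD, n = 3) that did not overlap. It rose at day 20 against day 0 by 1.73 ± 0.32 (log2, SE, adjusted p = 0.00028, edgeR). Its step from day 10 to day 20 (0.82 ± 0.31, adjusted p = 0.032, edgeR) turned round in CPM of all counts, with means of 2.24 at day 10 and 2.02 at day 20 that overlapped, and its step from day 0 to day 10 (0.92 ± 0.32, adjusted p = 0.035, edgeR) was lost in 8 of the 9 fits that left out 1 library. Of other parietal genes, Atp4b had 0 to 1 counts and Slc26a7 and Slc26a9 had 0 in the day 20 libraries. Hrh2 had 2 to 4 counts and Kcne2 0 to 4, with means above those of day 0 (0.123 against 0.0624 and 0.0516 against 0.0163 CPM). Aqp4 had 464 to 545 counts and Esrrg 105 to 132, and both fell against day 0 (log2 -2.12 ± 0.14 and -2.39 ± 0.28, SE).

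Of the 8 genes, 4 rose and 1 fell at day 10 against day 0, where 43.6% of the 16694 genes tested changed, with 24.7% risen and 18.8% fallen. At day 20 against day 0, Atp4a rose and 5 genes (Gkn1, Gkn2, Gkn3, Tff1, Tff2) fell, where 71.4% of all genes changed, with 33.3% risen and 38.1% fallen. At day 20 against day 10, Atp4a rose and 6 genes (Gkn1, Gkn2, Gkn3, Tff2, Muc5ac, Muc6) fell, where 71.1% of all genes changed, with 30.8% risen and 40.3% fallen. Median log2 changes were 0.03, -3.63 and -4.47, beside 0.10, -0.16 and -0.21 over all genes tested. The fitted changes of Gkn1 and Gkn2 at day 20 depend on the prior count. With both genes at their bounds the medians at day 20 were -2.77 and -1.76. The 3 comparisons share libraries and are not independent of one another.

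**Figure D4:**
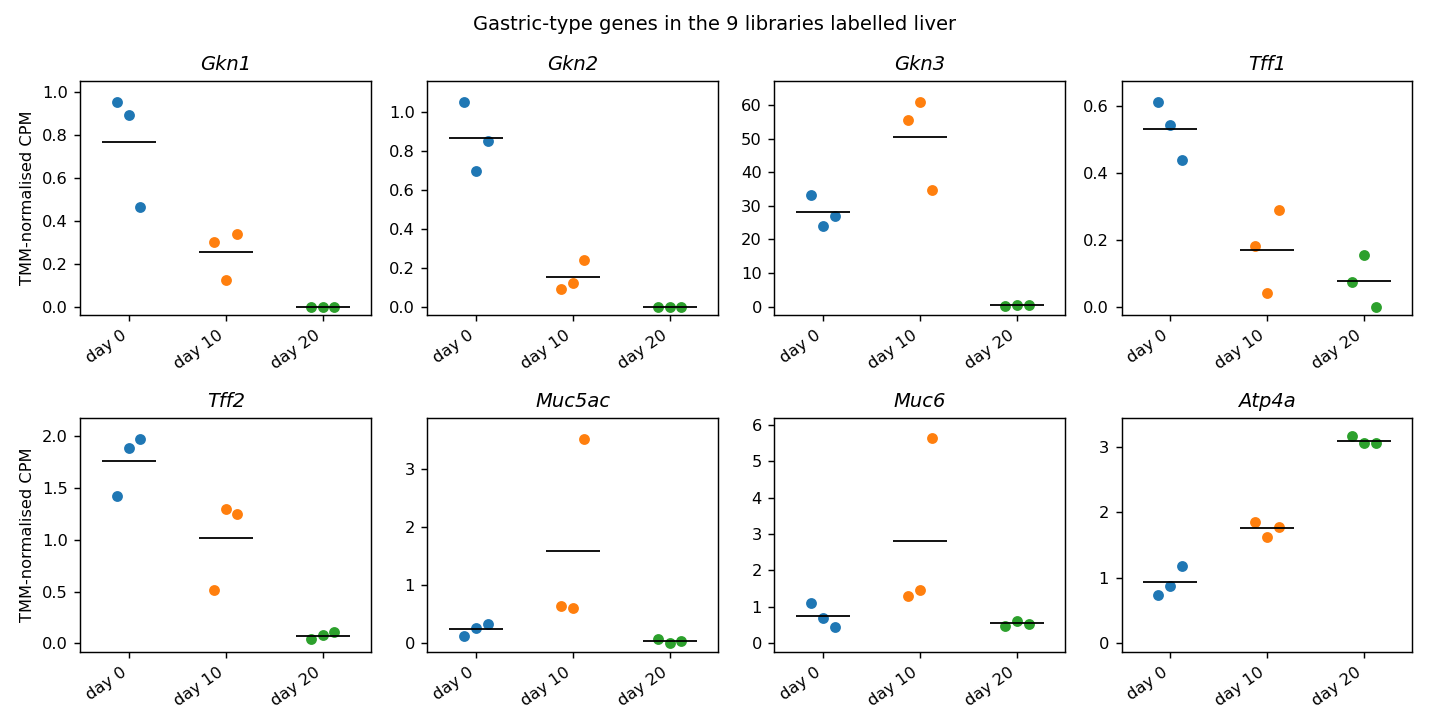
Levels of the 8 genes in the 9 libraries labelled liver, in TMM-normalised CPM on linear axes that differ between genes, with 1 point per library and a bar at the mean of each day (n = 3). Gkn3 averages 28, 50.4 and 0.373 CPM at days 0, 10 and 20, Atp4a 0.929, 1.75 and 3.09 CPM, and 1 library of day 10 lies far above the others for Muc5ac and Muc6.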

How the data were processed

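RNA was sequenced in bulk from 17 samples, and per the submitters' processing notes STAR, Partek and the mm10 build were used (versions not stated). The authors deposited expected counts per gene symbol for the 8 intestinal samples, of which 36.7% are not whole and which were rounded here, and whole counts per numeric gene identifier for the 9 samples labelled liver. The counting program and strand are not given in the sources used here. Of the identifiers, 24570 matched a symbol, and the 24 others, holding 3.93 to 22.1% of counts, were kept by number.

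Each set was fitted apart in R 4.3.3 with edgeR 4.0.16 (TMM, filterByExpr with a minimum count of 10 and total of 15, all groups of a set in one fit, quasi-likelihood F test, Benjamini-Hochberg over all genes, calls at an adjusted p under 0.05). SE is the log2 change divided by the root of F. Fold ratios are ratios of mean CPM. Alternatives were RLE, DESeq2 1.42.0, other filters, a replicate block, only the groups compared, and leaving out each library, which treats a library left alone in its group as varying like the rest. The procedure was tested on simulated data. The members and lists were chosen with earlier results of these data known. Every member is named, with up to 4 genes per companion list by mean level, the 3 genes most like each member, and neighbours within 100 kb, and other companion genes singled out were chosen after their values were seen. Replicate pairs differed by 2.04 to 2.86 times the sampling noise in the intestine and by 2.69 to 20.2 times in the set labelled liver. No pair was merged into 1 sample, and these values do not show whether replicates are separate animals. Figures were drawn with matplotlib 3.10.9.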

Additional observations from a re-analysis of the deposited data

Results flagged for a closer look

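The effect of hepatectomy differed between crypts and IEC for 6 of the 8 genes, by the interaction test in edgeR. Of all genes tested, 19.2% differed, 9.15% with the crypt effect higher and 10.1% with it lower. The crypt effect minus the IEC effect, on the log2 scale, was 3.26 for Gkn1, 3.40 for Gkn2, 1.13 for Gkn3, 3.67 for Tff1, 3.25 for Tff2 and 3.87 for Muc5ac, which had 3 to 28 counts a library. These differences kept their sign and their call in every alternative that was run on them, with ranges of 3.09 to 3.49 for Gkn1, 3.2 to 3.62 for Gkn2, 0.9 to 1.34 for Gkn3, 3.59 to 3.84 for Tff1, 2.95 to 3.67 for Tff2 and 3.46 to 4.5 for Muc5ac.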

How the results depend on the processing

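Of 864 refitted changes of single members, 785 kept direction and call, 58 lost the call, 12 gained one and 9 turned sign. The cause of each loss was not tested except for the stricter filter (1 CPM or more in each library of some group whose mean reaches 5 CPM), which tests fewer members. With it, the members called fell from 5 to 2 for hepatectomy against sham in crypts, from 6 to 3 in IEC, from 7 to 4 for crypts against IEC after hepatectomy, and from 5, 6 and 7 to 1 each for day 10 against 0, day 20 against 0 and day 20 against 10. All 23 member changes still tested under the stricter filter kept direction and call. DESeq2 called 3 members in crypts. Leaving out 1 library gave 3 to 5 members called in crypts, 4 to 6 in IEC, 6 for the difference of effects, 5 for crypts against IEC in sham, 5 to 7 after hepatectomy, 1 to 5 for day 10 against 0, 5 to 7 for day 20 against 0 and 6 to 7 for day 20 against 10. The lowest, 1 for day 10 against 0, came without replicate 2 of day 0.

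The signs that turned all belong to changes that were not called. Gkn1 in crypts was at 0.00 with RLE, 0.17 and 0.03 without replicate 1 of the sham and of the hepatectomy crypts, and as low as -0.20 without another library. The difference of effects of Muc6 was -0.98 without replicate 1 of sham IEC and at most 1.63. In crypts against IEC in sham, Tff2 was at 0.01 with no filter and -0.34 to 0.18 with 1 library left out (0.15 without replicate 1 of sham IEC), Muc6 at -0.37 to 2.24 (lowest without replicate 2 of sham IEC), and Atp4a at -0.85 to 0.02 (highest without replicate 2 of the sham crypts).

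The labels do not say whether replicate numbers pair the libraries. Deviations of same-numbered libraries correlated at -0.01 to 0.08 in the intestine and -0.06 to 0.05 in the set labelled liver. Not every library correlated best with its own number. With 2 libraries in each intestinal group the deviations mirror each other, so this check cannot exclude pairing. With the replicate block, 3 members were called for day 10 against 0, and the counts in the other comparisons stayed within 1.5 times. Low counts limit Muc5ac, Muc6 and Atp4a most.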

Other observations

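Of 4 listed regulators of stomach cells, Sox2 and Sox21 were under 10 counts in every intestinal library and the other pair rose. Nkx6-3, a homeobox gene of the stomach antrum and duodenum, rose by 2.58 ± 0.35 in crypts and 2.59 ± 0.40 in IEC (log2, SE, adjusted p = 0.00013 and 0.00027, edgeR), from 4 to 18 counts in the sham libraries to 57 to 104 in the hepatectomy libraries. Foxq1, a forkhead gene of stomach surface cells, rose by 0.85 ± 0.27 and 1.35 ± 0.29 (adjusted p = 0.027 and 0.0026, edgeR). Pdx1, a homeobox gene of the duodenum, antrum and pancreas, rose by 1.12 ± 0.11 and 1.78 ± 0.11 (adjusted p = 9e-06 and 1.4e-07, edgeR). Of 6 genes of the proximal small intestine, 5 rose in crypts and 6 in IEC, where 19.2% and 19.5% of all genes tested rose, with a summed level of 238 to 247 and 352 to 353 CPM in sham and hepatectomy crypts and 698 to 713 and 1416 to 1475 CPM in IEC. Of 6 ileum genes, 2 rose and 3 fell in crypts and 2 rose and 2 fell in IEC, beside 18.3% of all genes fallen in each fraction. Among them Fabp6, a bile acid binding protein of the ileum, fell by 0.85 ± 0.075 in crypts and 1.40 ± 0.077 in IEC (log2, SE, adjusted p = 3.7e-06 and 3.8e-08, edgeR). Slc51a, the highest of these ileum genes by mean level, rose by 0.34 ± 0.044 and 0.19 ± 0.044 (adjusted p = 8.5e-05 and 0.0043, edgeR). The other ileum genes were called in different directions: Slc10a2 fell and Slc51b rose in crypts only, Fgf15 fell in IEC only, and Nts fell in crypts and rose in IEC. The difference of effects was not past the threshold for Nkx6-3 (-0.00 ± 0.45, adjusted p = 1, edgeR) or Foxq1 (-0.50 ± 0.40, adjusted p = 0.43, edgeR). It passed for Pdx1, with the crypt effect lower (-0.66 ± 0.16, adjusted p = 0.013, edgeR). Of the 6 proximal genes, Pdx1 among them, 1 passed with the crypt effect higher and 3 with it lower. Over all genes tested these shares were 9.15% and 10.1%. The effects on Gkn1, Gkn2 and Tff1 also differed between the fractions, with the crypt effect higher. The position along the intestine from which each library came is not in the labels, and its part in these values was not tested.

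Ghrl, the ghrelin gene, rose by 1.08 ± 0.086 in crypts and 0.66 ± 0.085 in IEC (log2, SE, adjusted p = 1.5e-06 and 6e-05, edgeR). The other hormone and amine genes of that list did not all move with it. Sst, which encodes somatostatin, fell by 0.18 ± 0.057 in crypts and rose by 0.27 ± 0.053 in IEC (adjusted p = 0.028 and 0.0017, edgeR). Hdc, which encodes the enzyme that makes histamine, rose by 1.81 ± 0.52 in crypts (adjusted p = 0.016, edgeR). Its counts were low, at 5 to 9 in sham crypts and 20 to 27 in hepatectomy crypts. In IEC Hdc had a log2 difference of 0.62 ± 0.51 (adjusted p = 0.38, edgeR), and Gast had 0 to 5 counts. The part of the receptor gene background, higher in every hepatectomy library, in such low counts was not tested. Of 9 exocrine pancreas genes in the intestinal files, 7 stayed under 10 counts in every library.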
